A study of Mchenga conophoros with 13 samples.

Results

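The spots described here were the 5% of Visium spots with the highest share of six3 transcripts in each telencephalon section of Mchenga conophoros, a Lake Malawi cichlid whose males build sand bowers. A spot is a small disc of barcoded primers under the tissue, and its RNA can come from several cells. In each of 13 capture areas, spots with at least 500 UMIs (unique molecular identifiers, which count captured transcripts) were ranked by six3 UMIs over total UMIs, and the highest 5% with at least 1 six3 UMI were taken. This gave 325 six3-rich spots among 6624 kept spots, of 6755 in all, with 39 from building 1, 132 from building 2, 73 from control 1 and 81 from control 2. The sections came from 2 males collected while building and 2 control males that were not building, all adults older than 180 days, with no transgene or other treatment given in the labels. Building 1 has 1 capture area, C, and the other 3 males have 4 each, A to D. For building 1 the male and the capture area sampled therefore cannot be told apart.

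Six3 is a homeobox transcription factor of the developing forebrain and eye. In mice it acts in the embryonic striatum, downstream of Sp9, in the formation of striatal projection neurons that make enkephalin. Striatal projection neurons use GABA, and in ray-finned fishes the dorsal part of the subpallium (Vd) is commonly compared with the striatum, while glutamate neurons prevail in the pallium around it.

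The members were chosen by their six3 rate, so the six3 level is a description and was not tested. Six3-rich spots held 3182 of the 7506 six3 UMIs, or 42.4%, and 26.8% of all kept spots had at least 1. The six3 level was 1301 CPM in building 1, 1095 in building 2, 1389 in control 1 and 853 in control 2, against 97.3, 108, 103 and 50.04 in the other spots of the same males (CPM, a gene's UMIs per 1000000 summed UMIs of that male's spots of the class). A member had a median of 9 six3 UMIs and at most 32. There were 12 members that rested on 1 six3 UMI and 19 that rested on 2, while 265 had 5 or more. The rate that divided members from the rest differed between areas. It was lowest in control 2 D, where the last member had 1.69 and the first spot left out had 1.67 six3 UMIs per 10000, and highest in control 1 C, with 14.3 for both. In control 1 A the last member had 3.35 and the first spot left out 2.45.

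The kept spots held 51748635 UMIs, with 648668 to 7355874 per area and area medians of 1498 to 12165 UMIs per spot. Control 1 C was the shallowest area. Six3-rich spots were deeper than other spots in 10 of 13 areas. Their median was 8504 UMIs in building 1, 10016.5 in building 2, 4406 in control 1 and 11477 in control 2, against 4651, 8269, 3052 and 9109 in other spots. Since spots are fixed discs, more cells of a type and more RNA per cell cannot be told apart in any result that follows. Of 2717 barcodes, 1631 occurred in 2 or more areas, as the slides share one set of printed positions.

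The name dorsal subpallium was checked against marker genes, because spot positions were not used here. UMIs were summed per male over its six3-rich and its other spots and compared with edgeR's quasi-likelihood test, with the male as a block and Benjamini-Hochberg adjustment over all genes tested. All 7 markers taken for the dorsal subpallium (sp9, dlx2, dlx5, gad1b, gad2, meis2 and bcl11b) were higher in six3-rich spots. In the wider list of 27 subpallial factors, however, 12 rose, 11 were not called and 4 fell. Dlx2 was not called without control 2, nor gad1b with spots reduced to 2000 UMIs. Against other gad-rich spots, compared below, sp9, meis2 and bcl11b were not called and dlx2 and dlx5 were lower. These 7 markers therefore do not show which part of the subpallium the spots are from. Of the ventral markers, nkx2-1 fell, but not by the test with spots reduced to 2000 UMIs (-0.73), and lhx6, lhx8 and isl1 did not pass the test. Summed gad UMIs exceeded summed vesicular glutamate transporter UMIs in 84.6% of six3-rich spots of building 1, 97.0% in building 2, 76.7% in control 1 and 88.9% in control 2, against 22.2%, 33.6%, 24.5% and 21.1% of other spots.

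Six3-rich spots against other spots were the main comparison. Of 12282 genes tested, 723 were higher in six3-rich spots (5.89% of genes tested) and 1028 were lower (8.37%), at an adjusted p under 0.05. Counts of list members against other spots are to be read beside these shares. The median log2 fold change over all genes was -0.003. Of the called genes, 135 were higher in all 13 areas and 360 were lower in all 13. As an alternative, the 5945 spots with at least 2000 UMIs were each reduced to 2000 before ranking, and shallower spots were left out. In control 1 C this kept 118 of 371 spots and 5 members, so the set of spots changed along with depth. With these reduced spots 678 of 9226 genes were called, and 24 of the 1504 main calls that could be tested had the other sign. A spot's six3 rate and its other levels share the spot's total as a denominator.

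Of 27 tested transcription factors of the subpallium and its GABA neurons, 12 rose, 4 fell and 11 were not called, with a median log2 fold change of 0.42. Sp9, a zinc finger factor of embryonic subpallial progenitors and their neurons, had 777 CPM in building 1, 614 in building 2, 646 in control 1 and 752 in control 2, against 274, 180, 162 and 119 in other spots. The 4 males' six3-rich values lay above all 4 of the other values, and the log2 fold change was 1.99 (SE 0.14, adjusted p = 6.4e-07, higher in 13 of 13 areas). Meis2, a homeobox cofactor expressed in the mammalian striatum, had 466, 567, 596 and 443 CPM in building 1, building 2, control 1 and control 2, against 249, 175, 164 and 96.5. Its groups did not overlap either, and the log2 fold change was 1.68 (SE 0.15, adjusted p = 5.9e-06). Bcl11b, known in mice as Ctip2 and needed for striatal neuron differentiation, was 1.52 higher on the log2 scale (SE 0.12, adjusted p = 2.4e-06), again in 13 of 13 areas.

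Sox2 and sox1, related factors best known from neural progenitors, rose together. Sox2 had 308 CPM in building 1, 482 in building 2, 368 in control 1 and 322 in control 2, against 103, 118, 113 and 78.2 in other spots, a log2 fold change of 1.86 (SE 0.11, adjusted p = 1.2e-07). Sox1, which the list did not hold and which was among the 12 largest rises, had 113, 209, 148 and 128, against 13.5, 44.2, 26.9 and 19.2 (2.55, SE 0.15, adjusted p = 1e-07). Both were higher in all 13 areas. The Dlx genes, which specify GABA neurons of the subpallium, rose less. Dlx5 was 1.00 higher on the log2 scale (SE 0.17, adjusted p = 0.00096) and dlx6 1.37 higher (SE 0.23, adjusted p = 0.0011), each in 12 of 13 areas. Dlx2 was 1.13 higher (SE 0.26, adjusted p = 0.0083) but was no longer called without control 2, at 0.66. Dlx6 was not higher in every male, with 76.2 CPM in six3-rich spots of building 1 against 88.7 in its other spots. Dach2 (2.36, SE 0.21), zfhx4 (1.60, SE 0.23), zfhx3 (1.48, SE 0.21) and pbx3 (0.93, SE 0.18) also rose. Tshz1, a zinc finger factor, fell by 2.29 on the log2 scale and etv1, an ETS factor, by 1.65, each lower in all 13 areas.

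**Figure D1:**
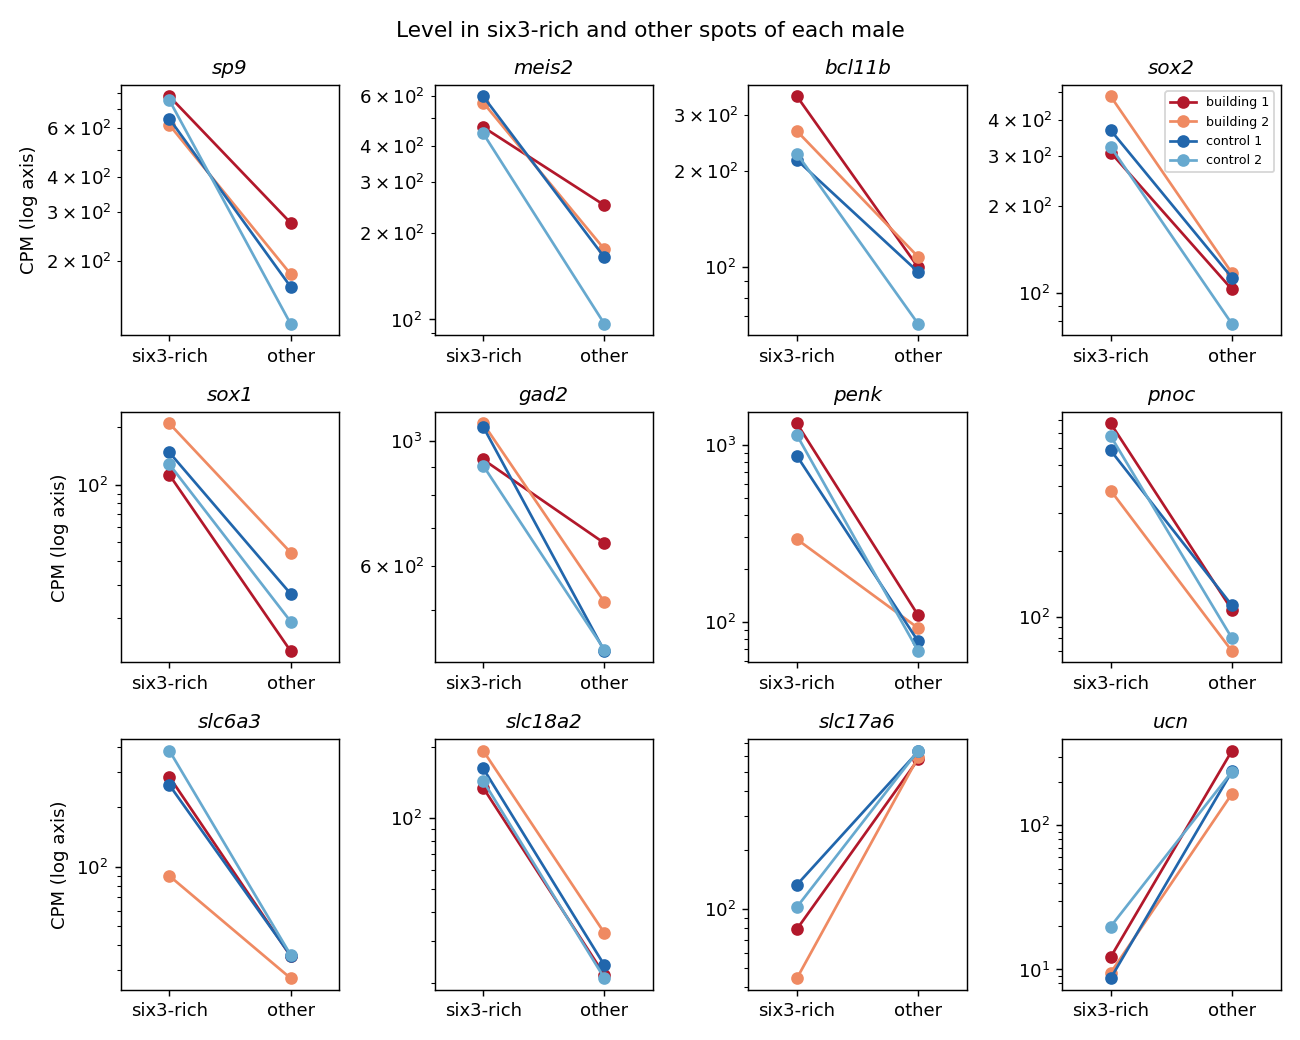
Level of 12 genes (CPM, log axis) in the six3-rich and the other spots of each male, with a line joining the 2 values of one male. Sp9, meis2, bcl11b, sox2, sox1, gad2, penk, pnoc, slc6a3 and slc18a2 lie higher in six3-rich spots of all 4 males, while slc17a6 and ucn lie lower in all 4.

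Genes of GABA metabolism were also higher. Of 5 tested members of the list of GABA synthesis, loading and uptake, 4 rose and 1, the only uptake transporter tested, fell, with a median of 0.79. Gad2, one of the enzymes that make GABA from glutamate, had 926 CPM in building 1, 1073 in building 2, 1059 in control 1 and 903 in control 2, against 658, 517, 423 and 426 in other spots. The groups did not overlap, and the log2 fold change of 0.99 (SE 0.10, adjusted p = 2e-05) was well below that of sp9. Gad1b was 1.53 higher (SE 0.25, adjusted p = 0.00088), though not by the test with spots reduced to 2000 UMIs (1.18). Gad1 passed the test narrowly (0.79, SE 0.25, adjusted p = 0.049) and was lower in building 1, at 51.8 against 112 CPM. Its call was lost under DESeq2 and without building 2 (0.78), control 1 (0.59) or control 2 (0.62). Slc6a11, a GABA transporter of glia in mammals, fell by 0.76 (SE 0.12, adjusted p = 0.00073).

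The neuropeptide genes divided sharply. Penk, which encodes the enkephalin precursor, had 1325 CPM in six3-rich spots of building 1, 293 in building 2, 868 in control 1 and 1138 in control 2, against 109, 92.1, 77.5 and 68.3 in other spots. The lowest six3-rich value was above the highest other value, and the log2 fold change was 3.22 (SE 0.28, adjusted p = 4.5e-06). Pnoc, which encodes the precursor of nociceptin, had 774, 381, 582 and 677 CPM in building 1, building 2, control 1 and control 2, against 108, 69.5, 113 and 79.7, a log2 fold change of 2.69 (SE 0.12, adjusted p = 1.6e-08). Npy, the neuropeptide Y gene, was abundant but uneven, with 2245, 2295, 2579 and 1641 CPM against 578, 3078, 983 and 834, so that building 2 was lower in its six3-rich spots. Its log2 fold change of 0.97 (SE 0.26, adjusted p = 0.02) was not called under DESeq2 or without building 1 (0.65) or control 1 (0.83).

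Pdyn, the prodynorphin gene, which in mammals marks the other main class of striatal projection neurons, was nearly absent. It had 0 UMIs in building 1 and 5.1, 2.9 and 2.21 CPM in building 2, control 1 and control 2, against 26.5, 95.1, 74.2 and 66.5 in other spots, and fell by 4.50 on the log2 scale (SE 0.27, adjusted p = 1.6e-07). Against other gad-rich spots, compared below, pdyn was not among the called genes. Ucn, the urocortin gene, had 12.2, 9.48, 8.68 and 19.9 CPM, against 330, 166, 237 and 236, and fell by 4.09 (SE 0.18, adjusted p = 1.6e-08). Both were lower in all 13 areas. In the list of peptides and other neuron signals as a whole, 3 of 25 tested members rose and 15 fell, with a median of -0.98. Sst, the somatostatin gene, fell by 1.93 and crh, the corticotropin-releasing hormone gene, by 2.16, although sst was higher in 2 areas and crh in 3. Another feature annotated sst was not among the called genes here. Adcyap1 (PACAP) fell by 2.81, bdnf (a neurotrophin) by 2.44 and chgb (a secretory granule protein) by 1.78, none of them higher in any area. Pomc, the proopiomelanocortin gene, fell by 3.40.

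Of the list of genes known from mammalian striatal projection neurons, 3 of 19 tested members rose (cnr1, gpr149 and penk). Another 3 fell (gpr6, pdyn and rasgrp2), and the list's median was -0.02. Over all genes tested, 5.89% rose and 8.37% fell. The other 13 list members were not called, so penk and pdyn do not stand for the list.

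Transporters for monoamines were higher. Slc6a3, the dopamine transporter, had 283 CPM in building 1, 89.7 in building 2, 258 in control 1 and 384 in control 2, against 35.3, 27.3, 35.5 and 35.8 in other spots (2.76, SE 0.22, adjusted p = 1.7e-06). Slc18a2, which loads monoamines into vesicles, had 134, 192, 162 and 143 against 21.6, 32.5, 23.7 and 20.9 (2.68, SE 0.12, adjusted p = 1.7e-08). Both were higher in all 13 areas. Th, which encodes the rate-limiting enzyme of dopamine synthesis, had 9.14, 2.19, 26.1 and 40.8 CPM in six3-rich spots against 81, 13.7, 18.9 and 10.3 in other spots, lower in both building males and higher in both control males, so the groups overlapped and it was not called (-0.15, SE 0.58, adjusted p = 0.92). The sign of the th value changed without building 1 (0.50) or building 2 (0.33), and without control 2 it was called as lower (-1.69). In the list of monoamine genes, 3 of 11 tested members rose and the other 8 were not called, while 5.89% of all genes tested rose.

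Pallial genes were low. Of 16 tested members of the pallial list, 13 fell and the other 3 were not called, with a median of -2.11. Slc17a6, a vesicular glutamate transporter, had 79.2 CPM in six3-rich spots of building 1, 44.5 in building 2, 133 in control 1 and 103 in control 2, against 580, 595, 636 and 642 in other spots, and fell by 2.91 on the log2 scale (SE 0.18, adjusted p = 1.6e-07). The 2 genes annotated slc17a7, another such transporter, fell by 3.64 and 2.47. Eomesa, a T-box factor of pallial neurons, had 24.4, 10.2, 17.4 and 43 CPM against 257, 239, 191 and 294 and fell by 3.48 (SE 0.22, adjusted p = 2.1e-07). Neurod6b fell by 2.01, neurod2 by 3.04, bhlhe22 by 2.22 and zbtb18 by 2.46, all of them factors of glutamate neurons in the mammalian cortex. None of these was higher in any of the 13 areas. Slc17a6 was not at 0, and the summed pallial list still had 628, 340, 837 and 801 CPM in six3-rich spots of building 1, building 2, control 1 and control 2, against 2950, 2608, 3124 and 3014.

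Ventral and septal factors were likewise low. Of 8 tested members of this list, 5 fell, with a median of -1.35. Nkx2-1, which patterns the ventral subpallium, had 3.05, 6.56, 5.79 and 8.82 CPM in building 1, building 2, control 1 and control 2, against 11.6, 27.5, 22.9 and 21.6, and fell by 1.77 (SE 0.29, adjusted p = 0.00078). Zic2, a zinc finger factor of the septum and other midline tissue, fell by 2.21. With spots reduced to 2000 UMIs neither was called, at -0.73 for nkx2-1 and -0.79 for zic2. Lhx6, a LIM homeobox factor downstream of nkx2-1, had a log2 fold change of 0.30 (SE 0.30, adjusted p = 0.61), lhx8 of -0.71 (SE 0.27, adjusted p = 0.1) and isl1 of -1.15 (SE 0.51, adjusted p = 0.17). Lhx6 had the other sign without control 2 (-0.094). Lhx8 was called as lower with no filter (-0.74), with the highest 2.5% of spots (-1.36) and with areas as samples (-0.78), but was at 0.54 with reduced spots and 1.05 with areas averaged.

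**Figure D2:**
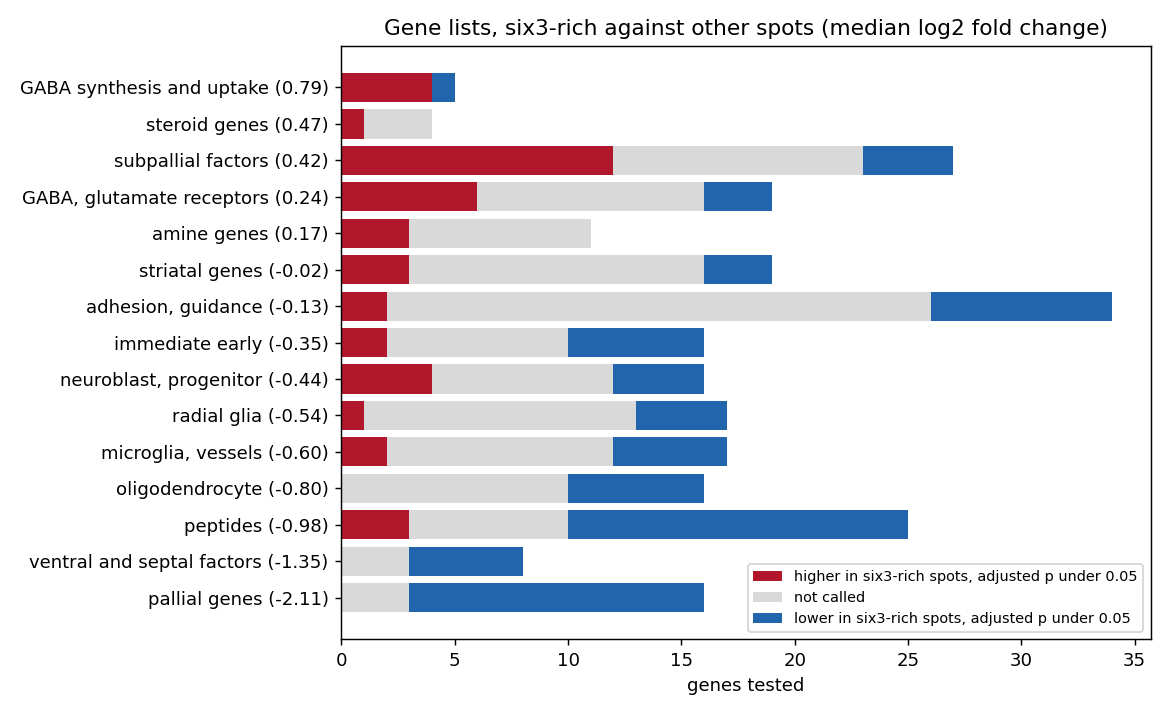
Number of tested genes in each of 15 lists that were higher in six3-rich spots, not called, or lower (edgeR, adjusted p under 0.05), with the list's median log2 fold change in brackets. Subpallial factors had 12 of 27 members higher, and pallial genes had 13 of 16 lower.

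Markers of glia and vessels were mostly lower or not called. Of 16 tested oligodendrocyte genes, 6 fell and the other 10 were not called, with a median of -0.80. Mag, a myelin glycoprotein gene, had 15.2, 26.2, 60.8 and 48.5 CPM in six3-rich spots of building 1, building 2, control 1 and control 2, against 128, 166, 177 and 143, and fell by 2.08 (SE 0.20, adjusted p = 1e-05). The myelin genes mbpa (-1.08), mpz (-1.11) and plp1b (-0.76) fell less, and with the highest 10% of spots their falls were not called (-0.68, -0.62 and -0.45 in the same order). The list's summed level was 226 to 590 CPM in six3-rich spots and 660 to 1330 in other spots. Of 17 radial glia genes tested, 4 fell and 1 rose, with a median of -0.54. S100b, a calcium-binding protein of glia, fell by 0.77 (SE 0.08), slc1a2, a glutamate transporter, by 0.61 and id1, an inhibitor of differentiation, by 0.89, the last not called with reduced spots (-0.68). Gfap, the glial filament gene, was not called (-0.40, SE 0.19, adjusted p = 0.21), though it was with no filter (-0.44) and without control 1 A and control 2 D (-0.66), and neither was cyp19a1, the aromatase gene that fish radial glia express (0.44, SE 0.15, adjusted p = 0.083), which was called without building 2 (0.68), with no filter (0.40) and with reduced spots (0.90). Of 4 tested genes of steroid receptors and aromatase, 1 was called, the glucocorticoid receptor gene nr3c1 (0.50, SE 0.13, adjusted p = 0.02), though not without building 1 (0.53), building 2 (0.41) or control 2 (0.48). Gli3, a mediator of Hedgehog signals, was the member that rose (2.31, SE 0.48, adjusted p = 0.0044). It was at 1.46 CPM in six3-rich spots of building 2 against 4 in its other spots, and was not called under DESeq2 or without control 1 (2.12).

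Of 17 tested genes of microglia, vessels and meninges, 5 fell and 2 rose, with a median of -0.60. Bgn, a proteoglycan of connective tissue, fell by 2.21 and the apolipoprotein gene apoe by 0.85. The 2 that rose encode proteins of the extracellular matrix. Hmcn1 (hemicentin) had 30.5, 101, 37.6 and 16.6 CPM in building 1, building 2, control 1 and control 2, against 7.2, 12.7, 6.24 and 3.81 (2.60, SE 0.24, adjusted p = 7.1e-06). Hspg2 (perlecan) had 21.3, 131, 57.9 and 29.8 against 23, 19.6, 16.5 and 9.29 (1.92, SE 0.31, adjusted p = 0.00071) and was not higher in building 1.

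Genes for axon guidance, receptors and recent activity showed a few members that moved. Robo2, a receptor for the repellent Slit, had 317, 208, 263 and 204 CPM in building 1, building 2, control 1 and control 2, against 120, 98.5, 109 and 104, and rose by 1.17 on the log2 scale (SE 0.11, adjusted p = 7.4e-06), while its relative robo3 fell by 1.32. The RNA-binding gene elavl2 (0.82) and the tubulin regulator stmn1 (0.56) rose. In the list of progenitors and young neurons, 4 of 16 tested members rose and 4 fell. For this and the next lists, the shares over all genes tested were 5.89% higher and 8.37% lower. Of 34 tested adhesion and guidance genes 2 rose, a share near the background, and 8 fell. The 2 were plxna2, a semaphorin receptor (1.27, SE 0.17, adjusted p = 0.00016, 13 of 13 areas), and cdh23, a cadherin (1.72, SE 0.29). Sema5a, a semaphorin, fell by 1.05. Of 19 receptors for GABA, glutamate and glycine, 6 rose and 3 fell. Grm8, an inhibitory metabotropic glutamate receptor, had 54.8, 74.4, 69.5 and 62.9 CPM against 22.8, 22.1, 22.4 and 14.2 (1.76, SE 0.17, adjusted p = 1.2e-05). Grin2b, an NMDA receptor subunit, rose by 0.42, whereas grm2 fell by 2.15 and grid1 by 1.79. Of 16 immediate early genes, 2 rose, 6 fell and 8 were not called. Jund rose by 0.72 and egr3 fell by 0.99, and egr1 was not called (-0.17, SE 0.10, adjusted p = 0.29). With spots reduced to 2000 UMIs the calls of robo3 (-0.95), grid1 (-1.0045), jund (0.43) and egr3 (-0.85) were lost.

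Among the 12 largest rises, 4 features carried identifiers with no gene name in the sources used here. LOC101480240 had the largest log2 fold change of these (3.58, SE 0.30, adjusted p = 3.1e-06). It had 402 CPM in building 1, 23.3 in building 2, 127 in control 1 and 229 in control 2, against 31.1, 5.51, 13.9 and 8.69. LOC101486958 was more even, with 375, 392, 272 and 308 against 62, 60, 53.2 and 39.8 (2.67, SE 0.12). Vax1, a homeobox factor of the ventral forebrain, is named as a member of the subpallial list and was not among these 12. It had 113, 5.1, 46.3 and 54 CPM against 10.9, 5.94, 5.55 and 7.95 (2.40, SE 0.42, adjusted p = 0.0015) but was higher in 7 of 13 areas. Ext1, which builds heparan sulfate chains, rose by 2.47 and creb3l1, a membrane-bound transcription factor, by 2.41, each in 12 of 13 areas.

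The share of spots with a UMI was compared at equal depth. After reduction of the 301 six3-rich spots with at least 2000 UMIs to exactly 2000, 74.1% ± 6.0 had a sp9 UMI (SD over 4 males, as for the shares that follow), against 22.1% of 5644 other spots. Gad2 was found in 82.5% ± 2.2 of six3-rich spots against 50.6% of other spots, meis2 in 64.3% ± 4.4 against 18.5%, and sox2 in 50.04% ± 6.1 against 16.1%. Penk was found in 48.5% ± 14.3 against 8.55%, pnoc in 53.7% ± 9.5 against 10.4%, slc6a3 in 24.6% ± 11.3 against 4.51% and slc18a2 in 25.2% ± 6.4 against 4.22%. Slc17a6 was found in 13.02% ± 6.7 of six3-rich spots against 62.9% of other spots. At this depth a spot can lack a UMI by counting alone, so these shares do not show that members differed from each other. A UMI of sp9, meis2, bcl11b or sox2 was present in 289 of the 301, all 4 genes in 26 and none in 12. A UMI of penk, pnoc, slc6a3 or slc18a2 was present in 256. Penk and pnoc were found together in 58 spots, penk and slc6a3 in 41, and slc6a3 and slc18a2 in 16. In a spot of several cells such pairs need not come from one cell. The joint counts were not compared with other spots or with counts expected from the single shares. They therefore do not show that the genes go together.

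High six3 and high GABA synthesis overlapped in part, and 97 six3-rich spots (29.8%) were also among the highest 10% of their area by summed gad rate, which is 14.8% of those 655 spots. Rates that rest on a few UMIs limit any such overlap. The highest 5% by sp9 held 25.9% ± 14.8 of the six3-rich spots, by bcl11b 17.7% ± 10.1, by meis2 15.2% ± 4.4 and by slc17a6 0.685% ± 1.37 (SD over 4 males).

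The levels of the same genes were followed along the six3 rank, as a description with no test. The classes were the 4848 spots without a six3 UMI, the 1121 spots with one below the top 10%, the 330 spots between 5 and 10%, the 165 members between 2.5 and 5% and the 160 members of the top 2.5%. Mean sp9 levels over the 4 males were 120 ± 56.0, 333 ± 94.6, 548 ± 60.4, 683 ± 68.4 and 711 ± 91.9 CPM in this order (SD). Pnoc was at 20.0 ± 6.6 in spots without six3, 240 ± 125 below the top 10%, 609 ± 222 at 5 to 10%, 640 ± 193 at 2.5 to 5% and 567 ± 159 in the top 2.5%. Pnoc just outside the 5% limit lay within the SD between males of its level in the members, so the limit at 5% is no edge for this gene. Slc17a6 was at 704 ± 32.1, 386 ± 71.2, 164 ± 92.5, 98.3 ± 47.4 and 81.7 ± 31.6. The median depth of the classes was 6392, 7506, 8213, 8115 and 9603.5 UMIs.

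**Figure D3:**
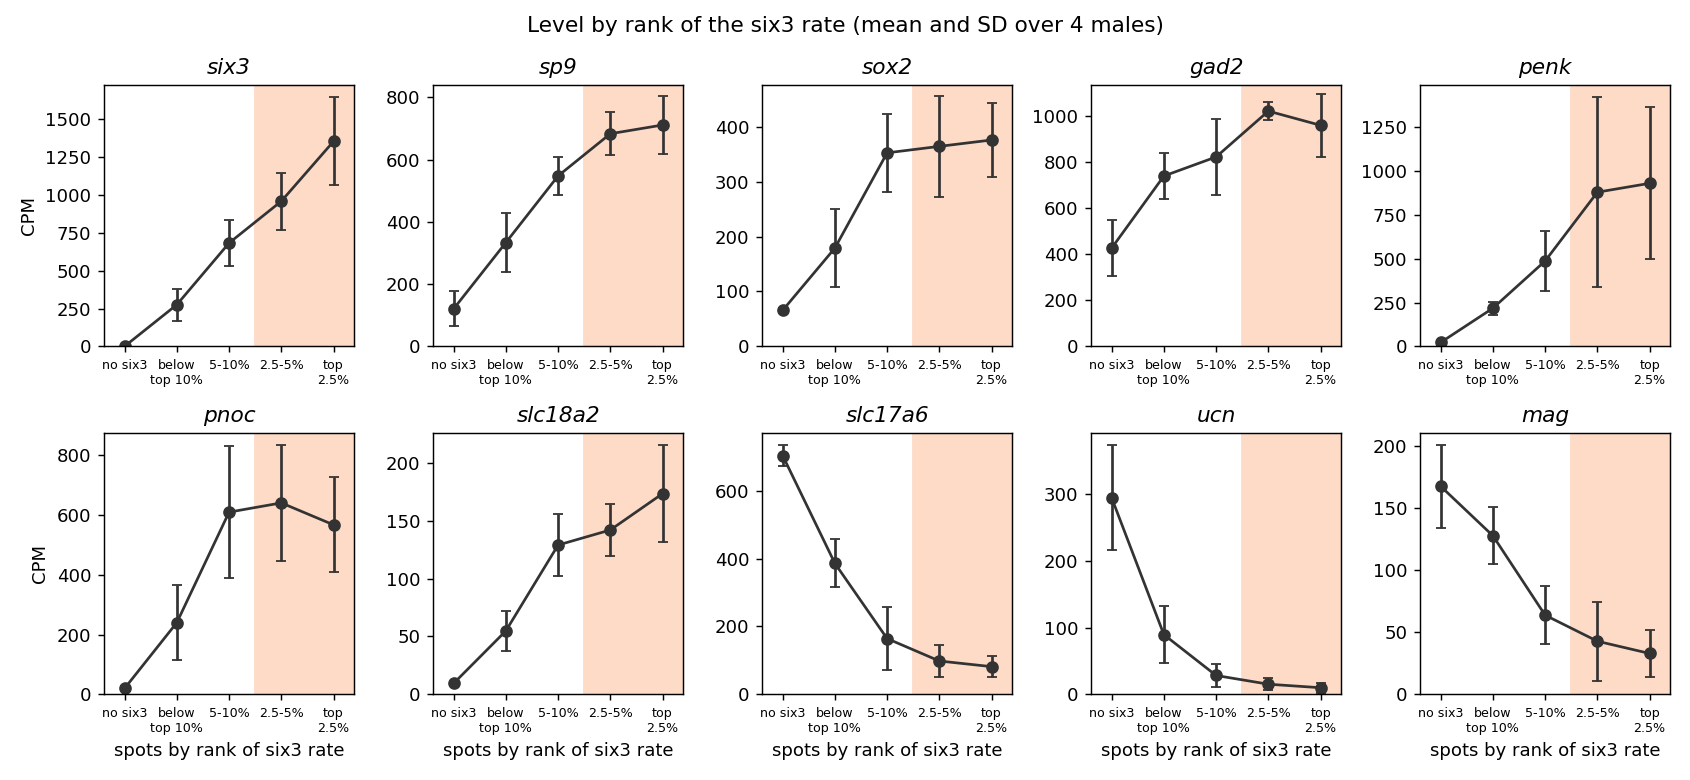
Level (CPM, mean and SD over 4 males) of six3 and 9 other genes in 5 classes of spots ordered by six3 rate, with the 2 classes of members shaded. Six3 is 683 on average just outside the members and 1360 in the top 2.5%, while sp9 is 548 and 711 there and slc17a6 164 and 81.7.

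Levels in six3-rich spots differed between capture areas, among factors as well as peptides. Sp9 levels in six3-rich spots were between 366 (control 1 C, from 14 UMIs) and 954 (control 2 C) CPM over the 13 areas, with a median of 654. Meis2 was between 366 and 993, gad2 between 641 and 1963, sox1 between 25.3 and 303, and pbx3 between 72.1 and 759.9. Npy was between 784 and 5707. Penk was 1325 in building 1 C and 781, 142, 122 and 75.9 in building 2 A to D. It was 1778, 679.9, 209 and 118 in control 1 A to D, and 8.01, 699.5, 1445 and 1918 in control 2 A to D. The control 2 A value rests on 1 UMI. Pnoc was 774 in building 1 C, 402, 268, 306 and 604 in building 2 A to D, 94, 1578, 393 and 502 in control 1 A to D, and 488, 936, 977 and 28.5 in control 2 A to D. In control 1 A and control 2 D, penk was thus high and pnoc low. Slc6a3 was 283 in building 1 C, 146, 87.5, 72.9 and 39.8 in building 2, 78.3, 898, 78.5 and 59 in control 1, and 8.01, 508, 675 and 28.5 in control 2. Hspg2, the perlecan gene, was 21.3 in building 1 C, 88, 106, 134 and 220 in building 2, 7.83, 0, 105 and 148 in control 1, and 184, 7.52, 3.28 and 4.75 in control 2. Control 2 A had little penk and much hspg2, and control 2 D the reverse. The labels do not say which plane of the brain each letter is, so section plane was not compared.

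**Figure D4:**
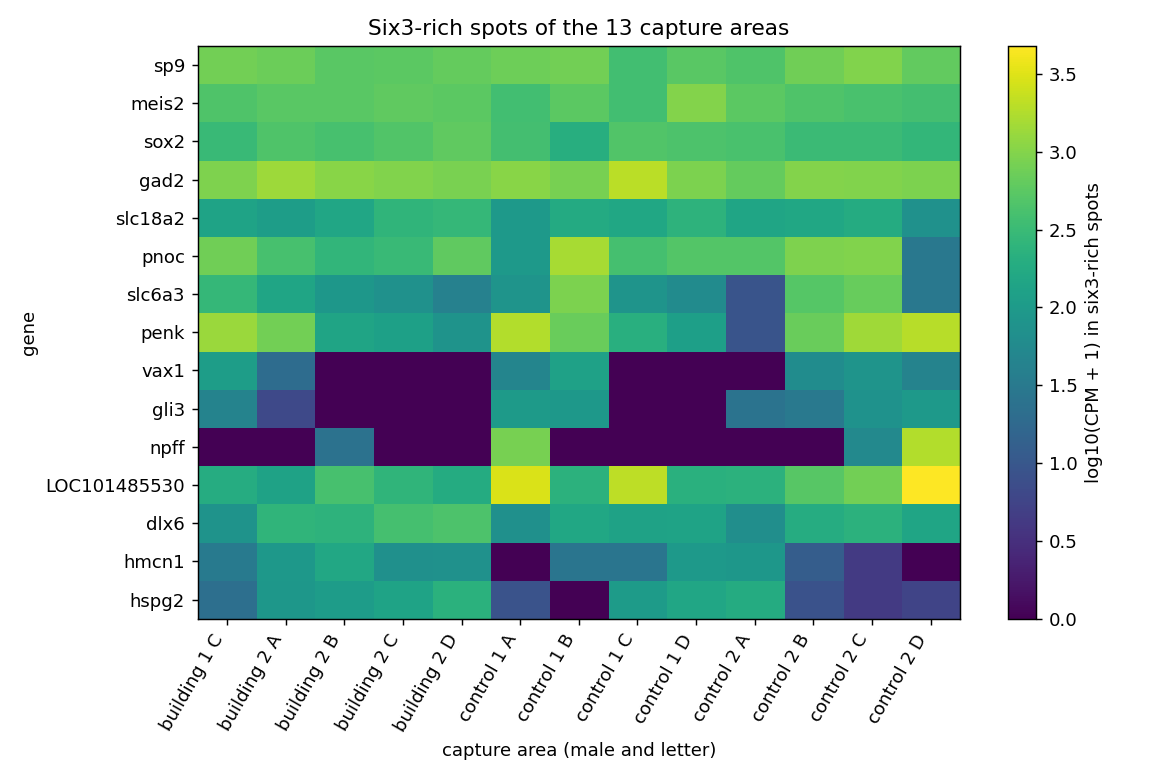
Level of 15 genes in the six3-rich spots of each capture area, on a colour scale of log10(CPM + 1), with building areas left of control areas. Sp9 stays between 366 and 954 CPM, while penk runs from 8.01 in control 2 A to 1918 in control 2 D and npff is 846 in control 1 A, 1823 in control 2 D and at most 52.4 in the other 11 areas.

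To see what set six3-rich spots apart from other GABA-rich tissue, they were compared with the 558 other spots among the highest 10% by summed gad rate in their area. The gad genes chose those spots, so genes that accompany gad are high there by choice. Of 9168 genes tested, 300 were higher in six3-rich spots (3.27%) and 457 were lower (4.98%). Sp9 did not pass the test (0.19, SE 0.13, adjusted p = 0.48), with 777, 614, 646 and 752 CPM in six3-rich spots of building 1, building 2, control 1 and control 2, against 901, 462, 669 and 523 in other gad-rich spots. Bcl11b (0.55, adjusted p = 0.064) and meis2 (-0.47, adjusted p = 0.067) did not pass it either, but bcl11b was called without control 1 (0.72) and meis2 without building 2 (-0.62). Sox2 remained higher, at 308, 482, 368 and 322 against 96.6, 198, 233 and 185 (1.10, SE 0.16, adjusted p = 0.0019). Dach2, of the dachshund family of nuclear factors, rose by 2.05 (SE 0.29, adjusted p = 0.0016).

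Rtn4rl2, a relative of the Nogo receptor, had 1331 CPM in building 1, 2676 in building 2, 1320 in control 1 and 1046 in control 2, against 163, 814, 446 and 425 in other gad-rich spots (1.87, SE 0.22, adjusted p = 0.00054). Zfyve28, a zinc finger gene, rose by 1.90 (SE 0.24, adjusted p = 0.0008), but with spots reduced to 2000 UMIs it was at 0.76 and not called. A feature without a name also rose, LOC101480240 by 2.35 (SE 0.30, adjusted p = 0.00087). Penk had 1325, 293, 868 and 1138 against 189, 176, 287 and 383 (1.67, SE 0.25, adjusted p = 0.0019). Slc18a2 rose by 1.22 (SE 0.20, adjusted p = 0.0028) and cnr1, the cannabinoid receptor gene, by 0.94 (SE 0.16, adjusted p = 0.0039). Pnoc (1.59, SE 0.38, adjusted p = 0.023) was no longer called under DESeq2 or without building 2 (1.59) or control 2 (1.82), and slc6a3 (0.90, SE 0.19, adjusted p = 0.013) without control 2 (0.81).

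Lower than in other gad-rich spots were all 6 tested ventral factors, with zic1 at -2.80 (SE 0.24) and lhx8 at -2.92 (SE 0.26), and 11 of 23 subpallial factors. A factor scarce in six3-rich spots could enter the test through the gad-rich spots alone, which favours a fall. The count of 6 is therefore a description and not evidence about ventral factors as a set. Of the subpallial factors, sp8, a relative of sp9 that marks interneurons of the olfactory bulb in mammals, had 15.2, 4.38, 40.5 and 28.7 CPM in six3-rich spots of building 1, building 2, control 1 and control 2, against 794, 147, 331 and 172 (-3.80, SE 0.37, adjusted p = 0.00033). Dlx5 fell by 1.18 (SE 0.20), while the fall of dlx2 (-1.03, SE 0.23) was not called without building 2 (-1.01) or control 1 (-0.84) and was -0.10 with spots reduced to 2000 UMIs. Drd1, the D1 dopamine receptor gene, had 0, 5.83, 11.6 and 11 CPM against 115, 37.5, 46.6 and 45.4 (-2.73, SE 0.40, adjusted p = 0.0019). Tac1, the substance P gene, which with drd1 marks dynorphin neurons of the mammalian striatum, fell by 2.15 (SE 0.42, adjusted p = 0.0073) but not by the test without control 2 (-1.96) or with reduced spots (-1.04). In the list of striatal genes, 3 of 13 tested members rose (cnr1, penk and prkcb) and 4 fell (drd1, grik3, rasgrp2 and tac1). The other 6 were not called and the list's median was -0.22. These called genes therefore do not stand for the list. Over all genes tested, 3.27% rose and 4.98% fell. Th fell by 2.84 (SE 0.53, adjusted p = 0.0058) and sst by 2.30 (SE 0.27, adjusted p = 0.00064).

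The other comparison was with the highest 5% of spots by summed lhx6 and nkx2-1 rate, chosen for factors of the ventral subpallium. Genes that accompany lhx6 or nkx2-1 are therefore high there by choice, and their falls in six3-rich spots follow in part from that choice. A gene scarce in six3-rich spots could also enter the test through the ventral-factor spots alone. After the 7 spots in both classes were left out, 318 spots remained in each class. In these ventral-factor spots gad UMIs exceeded glutamate transporter UMIs in 20.5% of spots of building 1, 77.1% in building 2, 32.4% in control 1 and 50.6% in control 2, so they hold much tissue that is not rich in GABA genes. Of 7807 genes tested, 244 were higher in six3-rich spots (3.13%) and 343 were lower (4.39%). Sp9 was higher by 1.70 (SE 0.19, adjusted p = 0.00031), meis2 by 1.35 (SE 0.17, adjusted p = 0.00058) and sox2 by 1.59 (SE 0.15, adjusted p = 8.3e-05). Bcl11b rose by 1.03 (SE 0.20, adjusted p = 0.0081), though not by the test without control 1 (0.90). Dach2 rose by 3.33 (SE 0.40), pnoc by 2.87 (SE 0.26), penk by 2.37 (SE 0.41), slc6a3 by 2.36 (SE 0.42), slc18a2 by 2.12 (SE 0.21) and hspg2 by 2.79 (SE 0.41). Gad2 rose by 0.61 (SE 0.15, adjusted p = 0.024), but not by the test under DESeq2 or without building 1 (0.61), control 1 (0.42) or control 2 (0.66), and with reduced spots it was 0.22. Dlx5 was not called (0.53, SE 0.24, adjusted p = 0.25). In the list of subpallial factors, 5 of 20 tested members rose and 3 fell (etv1, prdm12 and tshz1). The other 12 were not called and the list's median was -0.03, so the rises named here do not stand for the list.

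Somatostatin was the most abundant gene that fell among those named here. Sst fell by 3.36 on the log2 scale (SE 0.37, adjusted p = 0.00029), with 505, 10550, 1278 and 2513 CPM in the ventral-factor spots of building 1, building 2, control 1 and control 2. Lhx8 fell by 3.68 (SE 0.32), zic1 by 3.13 (SE 0.36), pdyn by 3.59 (SE 0.47), crhbp, whose product binds corticotropin-releasing hormone, by 2.91 (SE 0.36) and prkcd, a protein kinase C gene, by 2.92 (SE 0.39). Slc17a6 fell by 1.97 (SE 0.19, adjusted p = 0.00011).

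**Figure D5:**
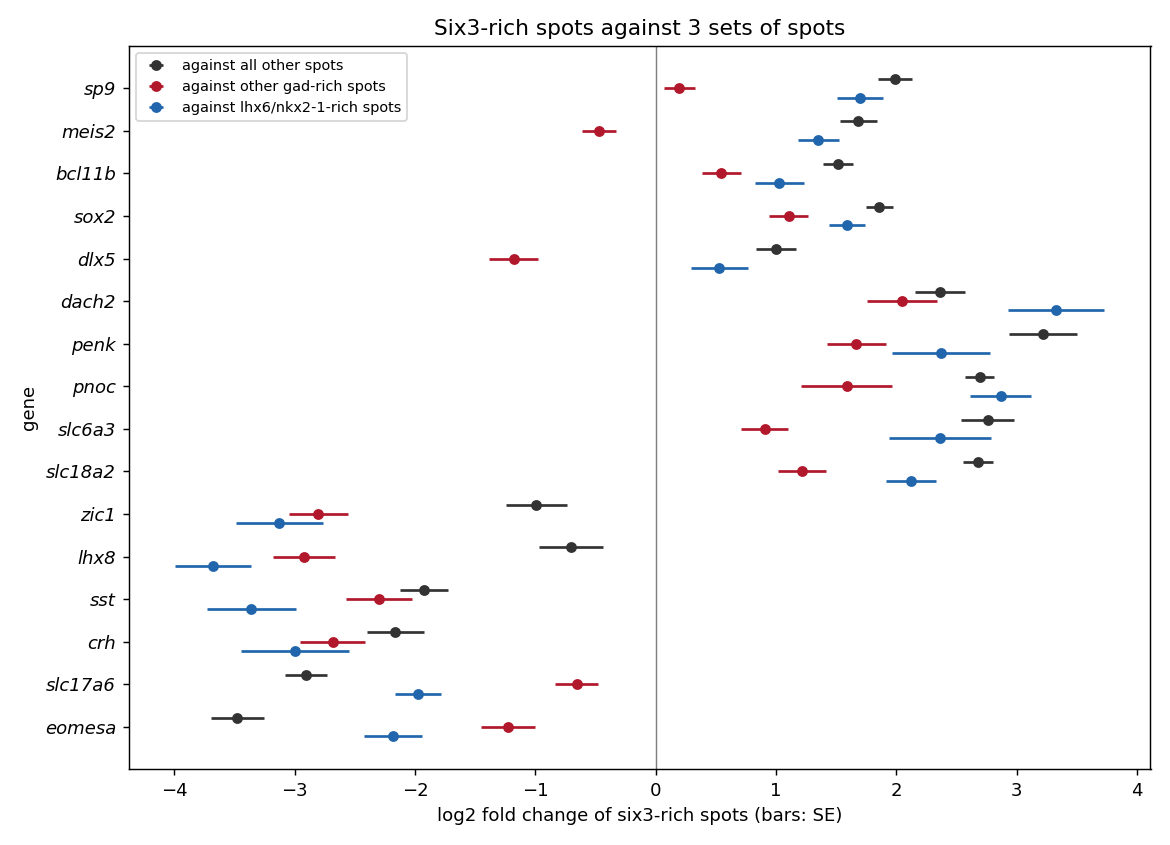
Log2 fold change of six3-rich spots (points, with SE bars) for genes named in the text, against all other spots, other gad-rich spots and ventral-factor (lhx6/nkx2-1-rich) spots. Sp9 is at 1.99, 0.19 and 1.70 in the 3 comparisons and was not called against other gad-rich spots. Sox2, dach2, penk, pnoc and slc18a2 lie right of 0 in all 3.

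The study's own question was how building males differ from control males. Within six3-rich spots, 0 of 8489 genes were higher in building males (0%) and 4 were lower (0.0471%) by edgeR's quasi-likelihood test. At an unadjusted p under 0.05 there were 141 higher and 212 lower, and DESeq2 called 0 higher and 3 lower. With 2 males against 2, an exact permutation test of a single gene could not go below 0.333 (two-sided).

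Npff and 2 features without a gene name were among them. Npff, which encodes the precursor of neuropeptide FF, had 0 and 6.56 CPM in six3-rich spots of building 1 and building 2, against 313 and 441 in control 1 and control 2 (-6.17, SE 0.44, adjusted p = 0.00029). Of its 517 UMIs in six3-rich spots, 492 lay in control 1 A and control 2 D, the areas with the lowest six3 rate at the limit. In other spots npff was 856 CPM in building 2 B and 766 in control 1 A, so it was not missing from building males. LOC101485530 had 186 and 249 in building 1 and building 2, against 1424 and 1565 (-2.75, SE 0.20, adjusted p = 0.00029), and LOC101480579 had 0 and 11.7 against 220 and 463 (-5.27, SE 0.54, adjusted p = 0.0049), the second not called under DESeq2 (-5.70). Without control 1 A and control 2 D, 0 of 7738 genes were called, with 146 at an unadjusted p under 0.05 and LOC101485530 at -1.36. In capture area C alone, which all 4 males have, 0 of 6043 were called, with 151 at an unadjusted p under 0.05.

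Whether the difference between six3-rich and other spots itself differed between building and control males was tested as an interaction. Of 12282 genes, 1 had a larger log2 difference in building males (0.00814%) and 30 a smaller one (0.244%), while DESeq2 called 20 genes. Th had a ratio of six3-rich to other spots of 0.113 in building 1 and 0.159 in building 2, against 1.38 in control 1 and 3.97 in control 2 (interaction -4.35 on the log2 scale, SE 0.61, adjusted p = 0.00087). The levels of th in six3-rich spots did not overlap between the pairs of males, which also held for 3899 of the 12282 genes in all. Those of the building males rest on few UMIs. Th was one of 5 genes still called without control 1 A and control 2 D (-4.51). Sp8 had ratios of 0.101 and 0.157 in building males, against 1.27 and 1.35 in control males (-3.37, SE 0.46, adjusted p = 0.00067). The sp8 levels in six3-rich spots of the building males also rest on few UMIs. Pcbp3, an RNA-binding gene, had 0.126 and 0.108 against 0.834 and 0.764 (-2.73, SE 0.29, adjusted p = 3.1e-05). Cartpt, the CART peptide gene, had an interaction of -1.98 (SE 0.31, adjusted p = 0.0025), npff of -6.74 (SE 0.77, adjusted p = 1e-04), LOC101485530 of -2.47 (SE 0.13, adjusted p = 7.2e-10) and LOC101477647 of -3.90 (SE 0.25, adjusted p = 8.9e-09). Npff was no longer called without building 2 (-1.67) or under DESeq2 (-3.47). The single gene in the other direction was rasgef1b, a Ras exchange factor gene (1.10, SE 0.23, adjusted p = 0.046), not called under DESeq2 or without building 2 (0.72), control 1 (1.09) or control 2 (1.08). Without control 1 A and control 2 D, sp8 (-2.72), pcbp3 (-1.42), cartpt (-1.81), npff (-3.29) and LOC101477647 (-2.80) were not called, while LOC101485530 (-1.43) was. Penk, pnoc, slc6a3, slc18a2, sox2 and meis2 were not among the 31 genes.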

How the data were processed

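For each capture area the authors deposited a matrix of raw UMI counts, made with Space Ranger 1.3.1 against the Maylandia zebra UMD2a assembly, with 32471 features and no normalization. The reads are thus of Mchenga conophoros and the annotation is of a related cichlid, and UMIs of close paralogs (gad1 and gad1b, the genes annotated slc17a7) could be split between copies. Features with an identifier only took the name that the study's tables pair with it. More than one feature carries the name sst, ext1, rtn4rl2, mag, cyp19a1 or rasgef1b. Values given under these names are of a single feature, and the other features of the name may differ.

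Groups came from the labels. Spots with fewer than 500 UMIs were left out. Levels are in CPM, UMIs of a gene per 1000000 summed UMIs of a class in a male. Counts summed per male and class were tested with the quasi-likelihood test of edgeR 4.0.16 in R 4.3.3 (TMM scaling, genes kept by filterByExpr, p-values adjusted by Benjamini-Hochberg and called under 0.05), with the male as a block wherever 2 classes were compared. SE is the log2 fold change over the square root of F. Males are the replicates. Six3, and the gad genes or lhx6 and nkx2-1 in their comparisons, were not tested. Members, marker lists and gene lists were chosen with earlier results of these data known. Besides list members, the text could name the 12 largest called rises and falls with the same sign in all 4 males against other spots (at least 100 UMIs), the 8 largest against each like class (at least 50 UMIs), and the 6 with the smallest p per direction between building and control males. Sox1, rasgef1b and the identifiers named fall under that rule. Alternatives were DESeq2 1.42.0, TMMwsp, no filter, other limits for the classes, spots reduced to 2000 UMIs, capture areas as samples or averaged (limma 3.58.1), and leaving out each male. Scripts were tested on simulated data. No spot of the like classes was sorted or gated, and doublets were not treated. Values of some list members are not reported here. A list of mitochondrial protein genes matched no feature.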

Additional observations from a re-analysis of the deposited data

Results flagged for a closer look

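In 3 of the genes named against other spots, 1 of the 4 males lay far from the others in its log2 ratio of six3-rich to other spots. The gap to the nearest male took 0.9406 of the whole range for pdyn, 0.9331 for sst and 0.887 for gli3. With 79 genes examined, some such gaps can arise by chance, at a rate that was not tested. Pdyn had 0 UMIs in six3-rich spots of building 1, so its gap is set by that count of 0, and gli3 was lower in six3-rich than in other spots of building 2 only.

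The difference between six3-rich and other spots differed between building and control males by the interaction test for 1 gene in the higher and 30 genes in the lower direction. The interaction was -6.735 on the log2 scale for npff, -4.347 for th, -3.366 for sp8, -1.979 for cartpt, -2.726 for pcbp3, -2.467 for LOC101485530, -3.896 for LOC101477647 and 1.103 for rasgef1b. Building 1 has area C only, while the other 3 males have A to D, so the areas sampled differ between the conditions. For building 1 the male and the area sampled cannot be told apart. The labels do not say which plane of the brain each letter is.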

How the results depend on the processing

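Calls between six3-rich and other spots (1751) stayed within 1.5 times that number in every alternative but spots reduced to 2000 UMIs, with 678 calls. Without 1 male they were 1314 to 1423. Against other gad-rich spots (757), DESeq2 gave 475, no filter 1304, reduced spots 191 and leaving out a male 321 to 763. Against ventral-factor spots (587), DESeq2 gave 380, no filter 1046, reduced spots 160 and leaving out a male 277 to 593. Building against control within six3-rich spots (4 calls) gave 50 with no filter, 11 with the highest 10% of spots, 0 in area C alone and 16 to 187 without 1 male, where the lone male of a condition is assumed to vary like the others. The interaction (31) gave 20 with DESeq2, 80 with no filter, 77 with the highest 10% and 29 to 298 without 1 male. Leaving out control 1 A and control 2 D, chosen after seeing the data, gave 0 and 5 for these comparisons. The causes were not tested. Of the 1751 main calls against other spots, 1504 were still tested with reduced spots, and 620 were called again with the same sign.

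Without the replicate block by male, the calls were 1321, 477, 446 and 0 for the comparisons other than that within six3-rich spots, where a replicate block by number gave 3. All interaction results named in the text lost their call without it, as did dlx5, gad1, gad1b, zfhx3, pbx3, npy, sst, crh, grin2b, slc1a2, mbpa, mpz, plp1b and nr3c1 against other spots, slc6a3, pnoc, sst and lhx8 against gad-rich spots, and gad2 against ventral-factor spots. The study describes size-matched pairs of males, but no source used here ties replicate numbers to pairs, and deviations of same-numbered males correlated at 0.00925 over 8490 genes.

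Of 134 gene results, 7 of 1911 alternative values changed sign, each for a gene that had not passed the test. These were lhx6 without control 2 (-0.0938, with up to 0.84 without another male), lhx8 with reduced spots (0.54) and with areas averaged (1.05), isl1 with areas averaged (1.08), th without building 1 (0.50) or building 2 (0.33; it was called at -1.69 without control 2), and meis2 against gad-rich spots with reduced spots (0.17). Depth limits genes of few UMIs, above all in control 1 C.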
